A study of Mus musculus with 9 samples.

Results

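The genes described encode mitochondrial ribosomal proteins, measured in LT-HSCs of C57BL/6 mice, the long-term haematopoietic stem cells at the top of the blood lineage. They were chosen by symbol: Mrpl, for the large subunit, or Mrps, for the small subunit, followed by a number and at most 1 letter a, b or c. This gave 78 of the 21939 genes in the count table, 49 of the large and 29 of the small subunit. All 78 were also among the 15127 genes left after low counts were filtered out.

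Mitochondria carry their own ribosome, with a large and a small subunit, which translates only the few proteins encoded in mitochondrial DNA, all of them parts of the respiratory chain and ATP synthase. Its proteins are encoded in the nucleus, made in the cytosol and imported, and they assemble on RNAs transcribed from mitochondrial DNA, so that both genomes supply the same machine. In haematopoietic stem cells, which are largely quiescent, mitochondrial activity is known to rise on activation and differentiation.

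RNA was sequenced from LT-HSCs that had been sorted from bone marrow by the absence of lineage markers, CD34 and Flt3 and the presence of Sca1 and cKit. The 9 libraries form 3 groups of 3: cells of mice older than 80 weeks kept with the RhoA inhibitor Rhosin at 100 µM (aged+Ri), cells of mice older than 80 weeks without it (aged), and cells of mice of 10 to 16 weeks without it (young). Cells of each group spent 16 h in a salt solution (HBSS) supplemented with 10% serum, under 3% oxygen and 5% carbon dioxide, before RNA extraction, so the inhibitor was given to cells outside the animal and no group represents cells lysed straight after sorting. The libraries are labelled as biological replicates without the number of mice behind each one, so a p-value here measures the spread between libraries. The study asked what age changes in these cells and what inhibition of the small GTPase RhoA does to aged ones.

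Library totals lay between 34358101 and 72503142 estimated counts, so that 3 counts equal 0.0410 to 0.0855 CPM, a count divided by the scaled library total. By its label, sequencing batch 1 holds aged+Ri 1 and aged 1, batch 2 holds aged+Ri 2 and 3, aged 2 and young 2, and batch 3 holds aged 3 and young 3, while young 1 is labelled with batches 1 and 3 together. The 10 LT-HSC markers summed to between 1248 and 2177 CPM in aged+Ri libraries, between 1853 and 2465 CPM in aged libraries and between 1794 and 2870 CPM in young libraries, and none of the 10 was at 0. The young libraries stood apart from the others in several ways. A count was found for 20129 to 21213 genes in young libraries, against 15024 to 17987 in the other 6. The Y-linked gene Ddx3y had 2577 and 6400 counts in young 2 and young 3 and at most 1 in the other 7 libraries, and the immunoglobulin gene Iglc2 took 1.23% of the counts of young 1. The sex of the mice is not in the labels. Because of the Ddx3y counts the comparisons with young cells are also given with young 1 as the only young library. This choice was made after the data were seen. Young 1 is itself the library with the Iglc2 counts and the label of batches 1 and 3 together, so it is not a cleaner reference.

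The mitoribosomal protein genes together took 0.848, 0.918 and 0.999% of the counts in aged+Ri libraries, 1.138, 1.32 and 1.15% in aged libraries and 1.23, 1.00 and 0.996% in young libraries. The aged+Ri share lay below the aged share in every library, and both groups overlapped the young libraries. Scaled by TMM, the same genes summed to 9550 ± 1124 CPM in aged+Ri cells, 11794 ± 1709 CPM in aged cells and 10784 ± 2264 CPM in young cells (SD, n = 3 each), and the ranges of all 3 groups overlapped. In bulk samples, fewer cells of a type and less RNA per cell cannot be told apart. In 8 libraries all 78 genes had a count, and in young 2 only Mrpl53 was at 0.

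Levels were compared between genes as CPM per kilobase of the reference transcript. The median large subunit gene lay at 56.7 CPM per kb in aged+Ri cells, 67.1 in aged cells and 51.4 in young cells, and the median small subunit gene at 63.8, 70.0 and 52.4 CPM per kb in the same groups. Within each subunit the levels spread widely, although each assembled ribosome holds its proteins in fixed numbers. In the large subunit the highest levels over the 9 libraries belonged to Mrpl33 (972 CPM per kb), Mrpl42 (912), Mrpl23 (393), Mrpl14 (322) and Mrpl34 (319). Such ranks depend on the length used. The reference transcript has 478 bases in Mrpl33, 666 in Mrpl42 and 692 in Mrpl23. All annotated exons of these genes together cover 7326, 3682 and 4883 bases, whereas both lengths are 607 bases in Mrpl34. Levels by exon length were not ranked. Mrpl33, Mrpl14, Mrpl23 and Mrpl34 have bacterial counterparts, and Mrpl42 belongs to the proteins that only mitochondrial ribosomes carry. In the small subunit the highest were Mrps21 (647 CPM per kb), Mrps18c (492), Mrps33 (402), Mrps24 (275) and Mrps12 (220.3), the last being the counterpart of the bacterial protein at the decoding centre. The lowest levels were those of Mrpl19 (4.19 CPM per kb) and Mrpl53 (0.294) in the large subunit and Mrps25 (8.50) and Mrps5 (5.08) in the small. Mrpl53 had between 0 and 24 counts in a library, and 695 bases of its exons are shared with the predicted gene Gm42688 on the same strand, so its count is uncertain. Mrps18a and Mrps30, which carry small subunit names, sit in the large subunit in known mammalian structures and are counted by name here.

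**Figure D1:**
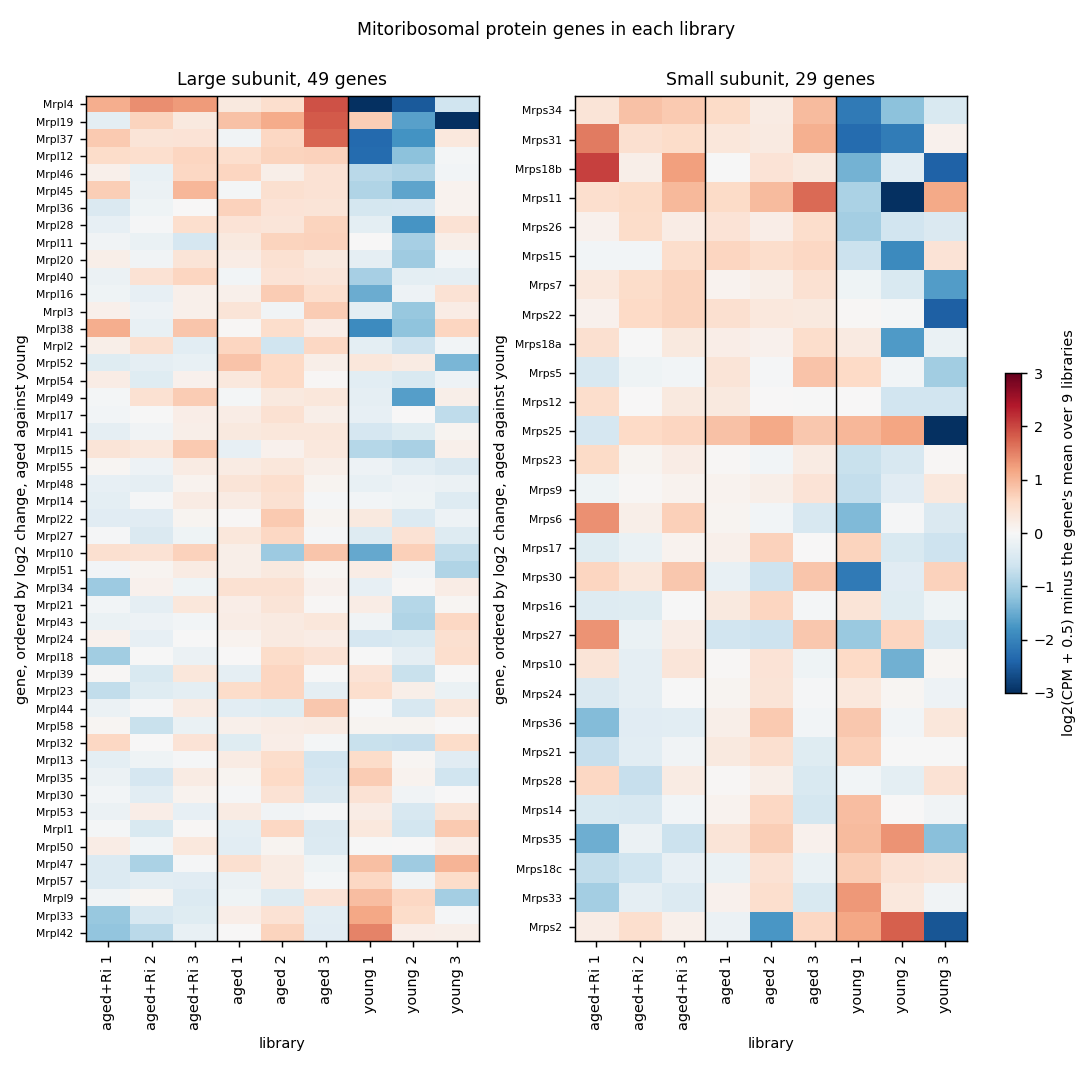
Heat map of 49 large subunit genes (left) and 29 small subunit genes (right) in the 9 libraries, aged+Ri, aged and young from left to right. Colour gives log2(CPM + 0.5) minus the gene's mean over the 9 libraries, and genes are ordered by their log2 change in aged against young cells. The largest deviations lie in the young columns, where blue cells crowd towards the top, and the aged and aged+Ri columns are paler.

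Replicates of aged cells, with or without the inhibitor, were tighter than those of young cells. The median SD of a mitoribosomal gene among the 3 libraries of a group was 0.25 in aged+Ri, 0.28 in aged and 0.61 in young cells on the log2(CPM + 0.5) scale. Among all tested genes of 10 to 1000 CPM it was 0.41, 0.45 and 0.71 in the same groups. A range of over 4-fold within a group was found for 0 of the 78 genes in aged+Ri cells, 1 in aged cells and 20 (25.6%) in young cells, where the share among genes of 10 to 1000 CPM was 8.39, 9.07 and 31.8% in the same order of groups. The 3 genes with the largest spread over all libraries, among those averaging at least 10 CPM, were Mrps25, Mrps11 and Mrpl4. Mrps25 had 23.6, 50.5 and 52.3 CPM in aged+Ri, 62.0, 73.6 and 58.6 in aged and 66.8, 76.9 and 0.143 in young libraries. Mrps11 had 32.7, 33.98 and 45.4 CPM in aged+Ri, 33.9, 44.5 and 75.7 in aged and 11.6, 0.0255 and 50.4 in young libraries. In both genes 1 young library, with 5 counts for Mrps25 in young 3 and 1 count for Mrps11 in young 2, made most of the spread. Exons of Mrps25 overlap Nr2c2 on the opposite strand over 4590 bases, and no source says that reads were counted by strand. The steadiest genes were Mrpl50, Mrps24 and Mrpl55, with SDs of 0.24, 0.26 and 0.27 on the same log2 scale over all 9 libraries. Mrpl50 averaged 116 ± 16.3 CPM in aged+Ri cells, 90.3 ± 17.2 in aged cells and 109 ± 8.92 in young cells (SD, n = 3 each).

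The genes share features of sequence and position that the choice by symbol did not use. A protein-coding gene started on the opposite strand within 1000 bases of the annotated start in 33 of the 78 genes (42.3%), against 14.4% of all 15037 coding genes tested. The share was 49.0% in the large and 31.0% in the small subunit, 40.8% among nuclear genes of the respiratory chain and 19.2% among cytosolic ribosomal protein genes. Mrpl46 and Mrps11, a large and a small subunit gene, form such a pair with each other, with starts 412 bases apart and 173 shared exon bases. RefSeq windows from 250 bases before to 50 bases after a start, on GRCm38.p6, were matched for 69 of the 78 genes. They were searched on both strands for the core letters of 3 factors known to bind promoters of mitochondrial genes: GCGCANGCG for NRF1, CCGGAAG for ETS factors such as GABPA, and AAGATGGC for YY1. Genes with an NRF1 match made up 23.2% of the mitoribosomal genes, 13.3% of tested genes and 7.03% of all genes with a window. ETS letters were found in 37.7, 17.7 and 9.93% of the same sets and YY1 letters in 17.4, 4.60 and 3.19%. At least 1 of the 3 was found in 63.8% of the mitoribosomal genes (67.4% of large and 57.7% of small subunit genes), in 30.9% of tested genes and in 17.8% of all genes. The ETS and YY1 letters can share the bases AAG, and a match is a description of the letters, not of binding.

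The 5 windows printed here belong to Mrpl12, Mrps18b and Mrps26, 3 genes with higher levels in aged than in young cells, and to Mrpl33 and Mrpl42, which had their highest levels in young cells. They were picked with the levels known and are examples, not a comparison of the kinds. The window of Mrpl46, also higher in aged than in young cells, holds no match. That of Mrpl57, which had its highest mean in young cells, holds an NRF1 match. Each is written 5′ to 3′ along the gene's strand, with motif letters in capitals, from chr11:120484387-120484686 on the plus strand for Mrpl12, chr17:35916391-35916690 on the minus strand for Mrps18b, chr2:130563507-130563806 on the plus strand for Mrps26, chr5:31613701-31614000 on the plus strand for Mrpl33 and chr10:95501900-95502199 on the minus strand for Mrpl42.
Mrpl12: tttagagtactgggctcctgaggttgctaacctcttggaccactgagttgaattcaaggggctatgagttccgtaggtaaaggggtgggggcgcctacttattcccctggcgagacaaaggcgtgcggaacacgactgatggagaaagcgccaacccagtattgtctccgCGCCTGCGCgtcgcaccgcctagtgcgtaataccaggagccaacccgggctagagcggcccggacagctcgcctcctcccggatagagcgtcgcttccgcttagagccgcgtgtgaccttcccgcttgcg
Mrps18b: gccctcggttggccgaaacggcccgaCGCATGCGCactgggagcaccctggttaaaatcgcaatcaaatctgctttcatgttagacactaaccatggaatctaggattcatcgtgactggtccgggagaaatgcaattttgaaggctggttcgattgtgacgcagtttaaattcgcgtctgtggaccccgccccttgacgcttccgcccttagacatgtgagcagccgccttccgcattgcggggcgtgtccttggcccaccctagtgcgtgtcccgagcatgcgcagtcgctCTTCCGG
Mrps26: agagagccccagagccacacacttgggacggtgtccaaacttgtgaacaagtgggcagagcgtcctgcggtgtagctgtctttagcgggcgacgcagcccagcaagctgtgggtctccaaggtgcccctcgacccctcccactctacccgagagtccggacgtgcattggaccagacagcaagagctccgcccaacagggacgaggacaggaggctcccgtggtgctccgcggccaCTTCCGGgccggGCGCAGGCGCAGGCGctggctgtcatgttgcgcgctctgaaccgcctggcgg
Mrpl33: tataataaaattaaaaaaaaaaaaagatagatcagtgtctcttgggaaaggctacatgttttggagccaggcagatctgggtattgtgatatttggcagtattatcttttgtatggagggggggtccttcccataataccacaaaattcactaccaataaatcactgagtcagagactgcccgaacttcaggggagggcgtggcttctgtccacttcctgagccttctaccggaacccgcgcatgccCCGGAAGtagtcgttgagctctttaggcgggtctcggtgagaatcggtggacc
Mrpl42: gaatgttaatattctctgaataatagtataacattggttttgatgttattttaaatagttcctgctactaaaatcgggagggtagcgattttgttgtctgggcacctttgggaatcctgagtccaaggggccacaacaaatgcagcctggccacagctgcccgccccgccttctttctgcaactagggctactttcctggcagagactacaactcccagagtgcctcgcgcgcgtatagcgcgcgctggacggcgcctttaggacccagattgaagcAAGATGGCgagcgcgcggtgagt
In the first, the capitals are an NRF1 match, from base 171 to base 179 of the window. The window of Mrps18b holds an NRF1 match near its far end and an ETS match from base 294. That of Mrps26 holds an ETS match followed by 2 NRF1 matches that overlap each other, and has a GC content of 66.3%. GC contents are 60.3% for the window of Mrpl12 and 57.0% for that of Mrps18b. The windows of Mrpl33, with 1 ETS match, and of Mrpl42, with 1 YY1 match just after the start, have GC contents of 47.0 and 51.3%.

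Inhibition of RhoA in aged cells was accompanied by slightly lower values of most large subunit genes, none of which passed the test. Of the 49 large subunit genes 40 had a negative log2 change in aged+Ri against aged cells, with a median of -0.25. Of the 29 small subunit genes 16 had a negative and 13 a positive change, with a median of -0.07, and the median of all tested genes was -0.06. With 1 library left out the large subunit median lay between -0.41 (without aged+Ri 3) and -0.22, and the small subunit median between -0.19 (without aged+Ri 2) and -0.07. The small subunit median was -0.16 without aged+Ri 1 and -0.16 without aged 2. The gap between the subunit medians was about the size of 0.183, the SD between replicates of the large subunit median, and the small subunit median was -0.23 with Mrps18a and Mrps30 counted as large subunit. With edgeR's quasi-likelihood test 0 of 78 genes were higher and 0 were lower at an adjusted p under 0.05, where the shares among all genes were 0 and 0%. DESeq2 and limma-voom also called 0 of the 78, against 2.12 and 0.364% of all genes in either direction. At an unadjusted p under 0.05 there was 1 gene higher (1.28%) and 4 lower (5.13%), against 4.24 and 4.89% of all genes. Groups did not overlap in 1 gene that was higher in aged+Ri cells and in 19 genes (24.4%) that were lower, against 7.87 and 8.66% of all genes. The 19 comprised 13 large and 6 small subunit genes.

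The gene with higher values was Mrps6, the counterpart of bacterial S6, at chr16:92058270-92112227. It had 235, 101 and 148 CPM in aged+Ri libraries, against 94.9, 84.8 and 64.9 CPM in aged libraries. The lowest aged+Ri library lay just above the highest aged one, and the log2 change was 0.99 ± 0.41 (SE), with an edgeR adjusted p of 0.494. Exons of Mrps6 are shared with Slc5a3 and Gm49711 on the same strand over 464 bases, so part of its count is uncertain. Among the genes with lower values, Mrpl23, a neighbour of the exit of the peptide tunnel, had 154, 200.1 and 211 CPM in aged+Ri libraries and 377, 407 and 214 CPM in aged libraries. Its groups were separated by a narrow gap, aged 3 lying next to the aged+Ri libraries, and the log2 change was -0.82 ± 0.32, with an edgeR adjusted p of 0.470, the smallest among the 78. Mrpl36 had 107, 132 and 144 CPM in aged+Ri libraries, against 233, 192 and 188 CPM in aged libraries, a log2 change of -0.68 ± 0.31. For Mrpl11, a protein at the base of the stalk that contacts translation factors, the values were 53.7, 50.03 and 40.7 CPM in aged+Ri libraries, against 70.98, 93.0 and 94.5 CPM in aged libraries. In Mrpl36 and Mrpl11 all aged+Ri libraries were below all aged ones by a clear gap, yet with 6 residual degrees of freedom their edgeR adjusted p-values were 0.524 and 0.552. Mrps36, counted in the small subunit by its symbol alone, is known as a component of the 2-oxoglutarate dehydrogenase complex of the citric acid cycle. It averaged 44.7 ± 15.3 CPM in aged+Ri cells and 85.3 ± 27.7 CPM in aged cells (SD, n = 3 each). Mrpl33 had 191, 299.7 and 327 CPM in aged+Ri libraries and 484, 572 and 339.9 CPM in aged libraries. These 2 had log2 changes of -0.93 ± 0.41 and -0.77 ± 0.35, and in both aged 3 came nearest to the aged+Ri range.

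The direction was also seen within sequencing batches, where at most 1 of the groups had more than 1 library. The same libraries gave the medians above, so the shared direction is partly built in and is not separate evidence. In batch 1 the median log2 difference of aged+Ri 1 from aged 1 was -0.26 for large and -0.23 for small subunit genes, with a median of 0 over all genes. In batch 2 the difference of the 2 aged+Ri libraries from aged 2 was -0.37 for large and -0.12 for small subunit genes, with -0.03 over all genes. Markers of LT-HSCs and of other cell types moved between the same groups. Of the 10 LT-HSC markers 7 had lower and 3 higher values in aged+Ri cells, with a median log2 change of -0.54. Cd34 and Flt3, the genes of 2 proteins whose absence was sorted for, both had lower values. All 8 myeloid markers had lower values in aged+Ri cells, and they summed to between 72.2 and 122 CPM in aged+Ri libraries and between 422 and 9693 CPM in aged libraries. Values were also lower for 6 of 6 T and NK cell, 5 of 5 B cell, 4 of 4 tested mast cell and basophil and 3 of 3 tested megakaryocyte markers. Summed T and NK cell markers spanned 2.16 to 32.5 CPM in aged+Ri libraries and 49.1 to 261 CPM in aged libraries. Mast cell and basophil markers spanned 0 to 5.34 CPM in aged+Ri and 23.1 to 182 CPM in aged libraries, B cell markers 65.2 to 134 CPM in aged+Ri and 57.5 to 494 CPM in aged libraries, and megakaryocyte markers 6.82 to 121 CPM in aged+Ri and 66.5 to 464 CPM in aged libraries. The platelet gene Gp9 and the granzyme gene Gzmb were at 0 in all 3 aged+Ri libraries. Erythroid markers summed to between 722 and 1526 CPM in aged+Ri libraries and between 14.04 and 73.4 CPM in aged libraries, and in aged+Ri libraries nearly all of the sum came from the alpha globin genes. Whether these differences have a part in the mitoribosomal values was not tested.

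**Figure D2:**
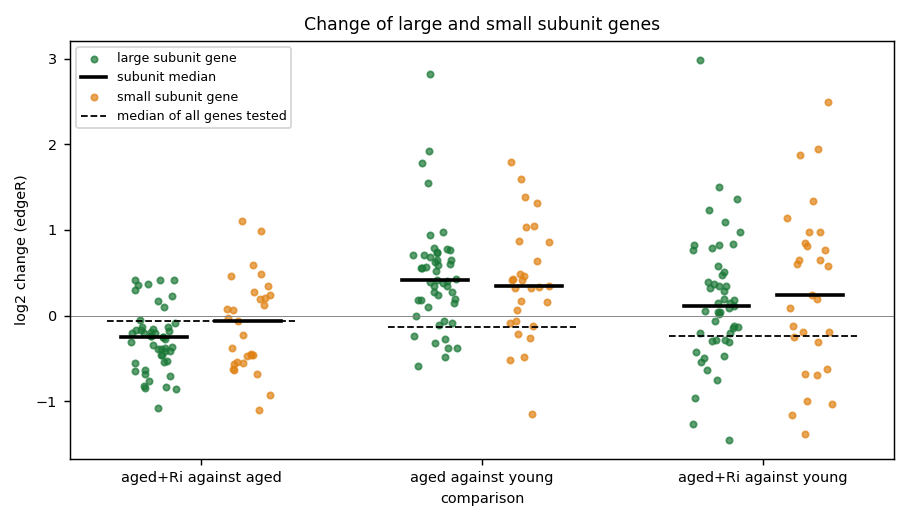
Log2 change (edgeR) of each large subunit gene (49 points, left of each pair) and each small subunit gene (29 points, right) in the 3 comparisons. Thick lines are subunit medians and dashed lines the median of all genes tested. The large subunit median lies below the dashed line in aged+Ri against aged cells (-0.25 against -0.06), and both subunit medians lie above it in aged against young cells (0.41 and 0.35 against -0.13).

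Aged cells had higher values than young cells for most genes of both subunits, and again none passed the test. The log2 change was positive for 38 of 49 large subunit genes, with a median of 0.41, and for 21 of 29 small subunit genes, with a median of 0.35, while the median of all tested genes was -0.13. The medians of large and small subunit genes differed by less than the SD between replicates of such a median, which was 0.183 for large and 0.129 for small subunit genes. By edgeR's test 0 of 78 genes were higher and 0 lower at an adjusted p under 0.05, against 0.0331% of all genes higher (5 genes) and 0% lower. DESeq2 called 3 of them (Mrpl4, Mrps34 and Mrps26, all higher), which is 3.85% of the 78 against 4.92% of all genes in either direction. Limma-voom called 0, against 0.119% of all genes. At an unadjusted p under 0.05, 10 genes were higher (12.8%) and 0 lower, against 6.09 and 10.1% of all genes. Groups did not overlap in 22 genes that were higher in aged cells (28.2%, 15 large and 7 small) and in 0 that were lower, against 8.58 and 16.1% of all genes.

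Mrpl4, a large subunit protein with a bacterial counterpart in the wall of the peptide exit tunnel, at chr9:21002738-21008839, had the largest difference. It had 50.7, 58.8 and 155 CPM in aged libraries, against 3.498, 6.79 and 27.2 CPM in young libraries. Every aged library was above every young one, aged 3 being far above the other aged libraries, and the log2 change was 2.82 ± 0.69 with an edgeR adjusted p of 0.173. No other gene's exons overlap those of Mrpl4. Mrpl12, at chr11:120484613-120489065, is the counterpart of the bacterial stalk protein L7/L12 and, in human cells, is also known to bind the mitochondrial RNA polymerase. It had 73.6, 82.0 and 84.4 CPM in aged libraries, against 10.1, 21.8 and 50.04 CPM in young libraries. The aged libraries were tight and the young ones spread over a wide range below them, with a log2 change of 1.55 ± 0.50 and an edgeR adjusted p of 0.207. Its exons overlap the non-coding gene Gm16755 on the opposite strand over 200 bases. Mrps34, which mice need for a stable small subunit, had 27.0, 21.6 and 35.4 CPM in aged libraries, against 3.74, 7.37 and 12.9 CPM in young libraries. Its log2 change was 1.80 ± 0.60, and its exons are shared with Mapk8ip3 on the opposite strand and Nme3 on the same one, over 2072 bases together. Mrps26, a small subunit protein, had 60.3, 51.3 and 64.5 CPM in aged libraries, against 21.9, 30.0 and 33.0 CPM in young libraries, a log2 change of 1.05 ± 0.39. Both groups were tight, with SDs of 6.77 CPM in aged and 5.79 CPM in young libraries. Mrpl46 averaged 99.4 ± 16.6 CPM in aged cells and 50.3 ± 16.9 CPM in young cells (SD, n = 3 each), a log2 change of 0.98 ± 0.38. Groups without overlap can lie close together, as in Mrpl58, a peptidyl-tRNA hydrolase that frees stalled ribosomes. It had 84.1, 89.2 and 90.2 CPM in aged libraries, against 80.9, 80.6 and 76.5 CPM in young libraries, a log2 change of 0.15 ± 0.33.

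The young libraries differed among themselves, and which of them was used decided which genes passed. With young 3 left out, edgeR called 3 genes, all higher in aged cells: Mrpl4, with a log2 change of 4.11, Mrpl12, with 2.34, and Mrps31. That is 3.85% of the 78, against 0.508% of all genes in either direction (80 genes). With young 1 as the only young library, whose spread is then taken from the other groups, edgeR called 5, all higher: Mrpl4, Mrpl12, Mrps34, Mrps31 and Mrpl37, or 6.41% of the 78, against 2.08% of all genes in either direction (358 genes). The subunit medians were then 0.60 for large and 0.09 for small subunit genes. With young 1 left out the small subunit median was 0.53. Leaving out any of the other libraries gave 0 calls. Mrps31 and Mrpl37 are named after their values were seen. Within batch 2 the median log2 difference of aged 2 from young 2 was 0.73 for large and 0.52 for small subunit genes, with -0.10 over all genes. Within batch 3 that of aged 3 from young 3 was 0.24 and 0.55, with -0.13 over all genes. Mrpl4, Mrpl12, Mrps34, Mrps26 and Mrpl46 were higher in the aged library in both batches. This follows from their choice as genes whose aged and young groups do not overlap, and adds nothing to it. Summed myeloid markers overlapped between aged libraries (422 to 9693 CPM) and young libraries (943 to 3148 CPM), as did the B, T and NK, erythroid and megakaryocyte markers. Marker by marker, 7 of 8 myeloid, 5 of 6 T and NK cell and 2 of 3 tested megakaryocyte markers had higher values in aged cells. Values were lower for 5 of 5 tested erythroid, 5 of 6 stromal and endothelial and 3 of 5 B cell markers. Of the 4 tested mast cell and basophil markers 2 were higher and 2 lower. The part of these cell types in the result was not tested.

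**Figure D3:**
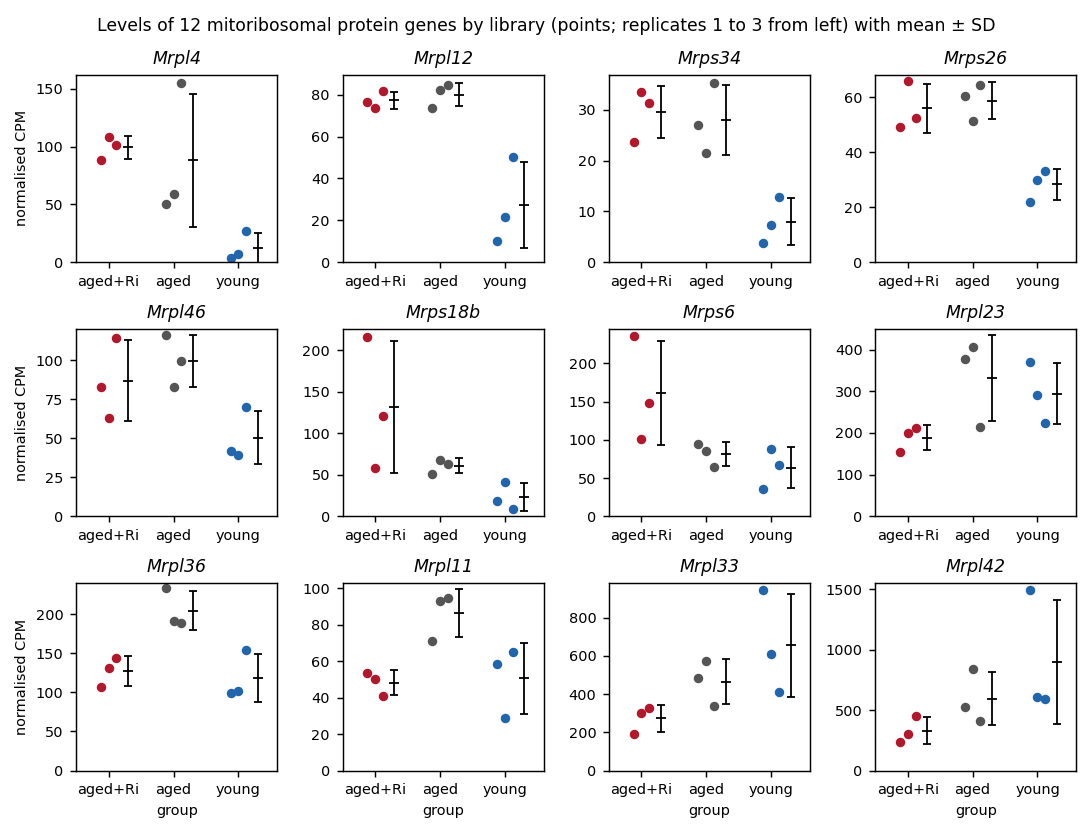
TMM-scaled CPM of 12 mitoribosomal genes in the aged+Ri, aged and young libraries, with points for replicates 1 to 3 from left to right and bars for mean ± SD. Mrpl4, Mrpl12, Mrps34, Mrps26 and Mrpl46 have all young points below all aged points. Mrpl33 and Mrpl42 run the other way in group means, with the highest means in young cells and the lowest in aged+Ri cells.

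The difference between aged and young cells was larger for genes with GC-rich transcripts. Across the 78 genes the Spearman correlation of GC content with the log2 change was 0.40 for aged against young cells and 0.15 for aged+Ri against aged cells. Over 15013 tested genes with a reference transcript these correlations were 0.11 and -0.10. The 78 points are genes measured in the same 9 libraries and are not independent. In aged against young cells the median log2 change was 0.25 in the 26 genes with the lowest GC content (39.6 to 48.2%), 0.40 in the middle 26 and 0.64 in the 26 with the highest (52.7 to 60.6%). A positive change was found for 23 of the 26 genes of highest GC content and 15 of the 26 of lowest. Over all tested genes, cut at the same GC contents, the medians also rose, from -0.27 to -0.09 and 0.04. The summed CPM of the GC-richest 26 genes divided by that of the GC-poorest 26 was 0.775, 0.711 and 0.692 in aged+Ri libraries, 0.697, 0.548 and 0.740 in aged libraries and 0.343, 0.461 and 0.552 in young libraries. Every aged+Ri library and the aged libraries 1 and 3 were above every young one, and aged 2 lay within the young range. Among all tested genes longer transcripts had lower changes in aged against young cells (Spearman -0.27), whereas among the 78 genes length showed a correlation of 0.04. The part of GC content in the mitoribosomal values was not tested.

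**Figure D4:**
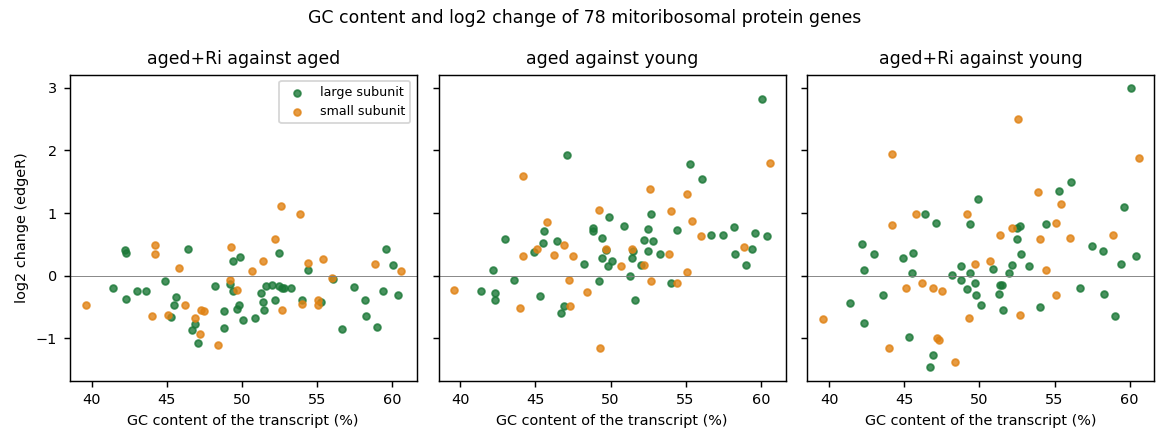
GC content of the reference transcript (x axis, percent) and log2 change (y axis, edgeR) of the 78 mitoribosomal genes in the 3 comparisons, large subunit in green and small subunit in orange. The points climb to the right in aged against young cells (Spearman 0.40) and aged+Ri against young cells (0.35) and less so in aged+Ri against aged cells (0.15).

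Aged cells with the inhibitor, set against young cells, showed members of both subunits at either side. The median log2 change was 0.11 for large subunit genes, of which 30 of 49 were positive, and 0.24 for small subunit genes, of which 17 of 29 were positive, with a median of -0.24 over all genes. With 1 library left out the large subunit median lay between 0 (without aged+Ri 3) and 0.26 (without young 3), and the small subunit median between 0.16 (without aged+Ri 3) and 0.52 (without young 3). The large subunit median was 0.02 without young 1, 0.22 and 0.23 without aged+Ri 1 and aged+Ri 2, 0.04 with the size factors of DESeq2, 0.21 with limma-voom and 0.28 with the sequencing batch as a term. EdgeR's test called 0 of the 78 genes higher and 0 lower, against 0.959% of all genes higher (145 genes) and 0.489% lower (74 genes). DESeq2 called 7, of which 4 were higher (Mrpl4, Mrps18b, Mrps34 and Mrps26) and 3 lower (Mrpl33, Mrpl42 and Mrps18c), which is 8.97% of the 78 against 12.3% of all genes in either direction. Limma-voom called 3 (3.85%), against 4.14% of all genes. At an unadjusted p under 0.05, 11 genes were higher (14.1%) and 7 lower (8.97%), against 9.06 and 14.4% of all genes. Groups did not overlap in 13 genes that were higher (16.7%) and 8 that were lower (10.3%), against 12.4 and 19.9% of all genes. This comparison and the one of aged against young cells share their young libraries, and it shares its aged+Ri libraries with the comparison against aged cells, so the 3 are not independent.

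Closest to the threshold were Mrps18b and Mrpl4, both with an edgeR adjusted p of 0.0521. Mrps18b, at chr17:35910379-35916389, is 1 of 3 paralogues of bacterial S18. It had 215, 58.3 and 121 CPM in aged+Ri libraries, against 19.1, 41.4 and 9.18 CPM in young libraries. The groups did not overlap, but aged+Ri 1 was far above the rest, and the log2 change was 2.5 ± 0.58. Its exons overlap the antisense gene Gm16279 over 638 bases. Its paralogue Mrps18c had the opposite sign, with 178, 198 and 253 CPM in aged+Ri libraries, against 495, 402 and 383 CPM in young libraries, a log2 change of -1.03 ± 0.29 with an edgeR adjusted p of 0.0833. Mrps18a, the paralogue found in the large subunit, averaged 111 ± 18.7 CPM in aged+Ri cells and 73.1 ± 42.4 CPM in young cells (SD, n = 3 each), with overlapping groups. Per kilobase the 3 paralogues averaged 122, 328 and 126 CPM per kb for Mrps18b, Mrps18c and Mrps18a in aged+Ri cells, and 21.5, 669 and 82.7 CPM per kb in young cells. Mrpl4 had 88.4, 108 and 101 CPM in aged+Ri libraries against the 3.498 to 27.2 CPM of the young ones, a log2 change of 2.99 ± 0.70. Mrpl12, with 76.3, 73.8 and 81.7 CPM in aged+Ri libraries, lay in the range of aged cells.

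The genes with lower values than in young cells were led by Mrpl33, at chr5:31596935-31664384. It had 191, 299.7 and 327 CPM in aged+Ri libraries, against 945, 612 and 409 CPM in young libraries, a log2 change of -1.27 ± 0.35 with an edgeR adjusted p of 0.0812. Mrpl42, at chr10:95480805-95501940, had 233, 302 and 451 CPM in aged+Ri libraries and 1490, 608 and 595 CPM in young libraries. In both genes the highest value was that of young 1, while every aged+Ri library was below every young one. Exons of Mrpl33 are shared with Gm43809 on the same strand over 261 bases. Mrps33 and Mrpl57, proteins that only mitochondrial ribosomes carry, averaged 278 ± 70.4 and 157 ± 6.04 CPM in aged+Ri cells and 623 ± 328 and 264 ± 68.3 CPM in young cells (SD, n = 3 each). With young 3 left out edgeR called 11 of the 78 genes, 8 higher and 3 lower, among them Mrpl4, Mrpl12 and Mrps34 as higher and Mrpl33 and Mrpl42 as lower. That is 14.1% of the 78, against 3.38% of all genes in either direction (532 genes). With young 1 as the only young library it called 12 (15.4%), of which 9 were higher, against 4.27% of all genes in either direction (735 genes). Leaving out young 2, or aged+Ri 2, gave 1 call (1.28%, against 1.17% of all genes without young 2 and 1.22% without aged+Ri 2), which was Mrps18b both times, and leaving out any other library gave 0. Within batch 2, where aged+Ri 2 and 3 could be set against young 2, the median log2 difference was 0.35 for large and 0.40 for small subunit genes, with -0.09 over all genes. Summed myeloid markers were 72.2 to 122 CPM in aged+Ri libraries and 943 to 3148 CPM in young libraries, all 8 having lower values in aged+Ri cells. Values were also lower for 6 of 6 T and NK cell markers, whose sums spanned 2.16 to 32.5 CPM in aged+Ri libraries and 63.5 to 263 CPM in young libraries. They were lower for 5 of 5 B cell markers, whose sums spanned 65.2 to 134 CPM in aged+Ri libraries and 169 to 13446 CPM in young libraries. The 4 tested mast cell and basophil markers were lower as well, with sums of 0 to 5.34 CPM in aged+Ri and 2.81 to 102 CPM in young libraries, and so were the 3 tested megakaryocyte markers, with sums of 6.82 to 121 CPM in aged+Ri and 100.2 to 247 CPM in young libraries. Of the 5 tested erythroid markers 2 had higher and 3 lower values, with sums of 722 to 1526 CPM in aged+Ri libraries and 33.96 to 725 CPM in young libraries. The part of these cell types in the result was not tested.

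The balance of the subunits was described by the ratio of summed large to summed small subunit levels, in CPM per kb, within a library. It was 1.48, 1.80 and 1.76 in aged+Ri libraries, 1.94, 1.93 and 1.97 in aged libraries and 1.78, 1.87 and 1.83 in young libraries. The aged libraries, with a mean of 1.95 ± 0.0195 (SD), were the highest, while the aged+Ri libraries, with a mean of 1.68 ± 0.176, overlapped the young ones, with a mean of 1.82 ± 0.0450. This order depends on the length used. Without division by length the ratios were 1.53, 1.69 and 1.71 in aged+Ri libraries, 1.71, 1.69 and 1.84 in aged libraries and 1.44, 1.56 and 1.82 in young libraries, and all groups overlapped. With the length of the union of each gene's exons they were 1.36, 1.59 and 1.55 in aged+Ri libraries, 1.56, 1.51 and 1.80 in aged libraries and 1.04, 1.27 and 1.49 in young libraries. The aged+Ri libraries then overlapped both other groups, the aged libraries all lay above the young ones, and the mean was 1.499 in aged+Ri and 1.26 in young cells. By reference transcript length, the sums are led by genes with short transcripts such as Mrpl33. It averaged 570.1 ± 149.8 CPM per kb in aged+Ri cells, 974 ± 245 in aged cells and 1372 ± 566 in young cells. With Mrps18a and Mrps30 counted in the large subunit, the mean ratios were 1.82, 2.08 and 1.90 in aged+Ri, aged and young cells. No test was made of the ratio, which is a score over the chosen genes.

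**Figure D5:**
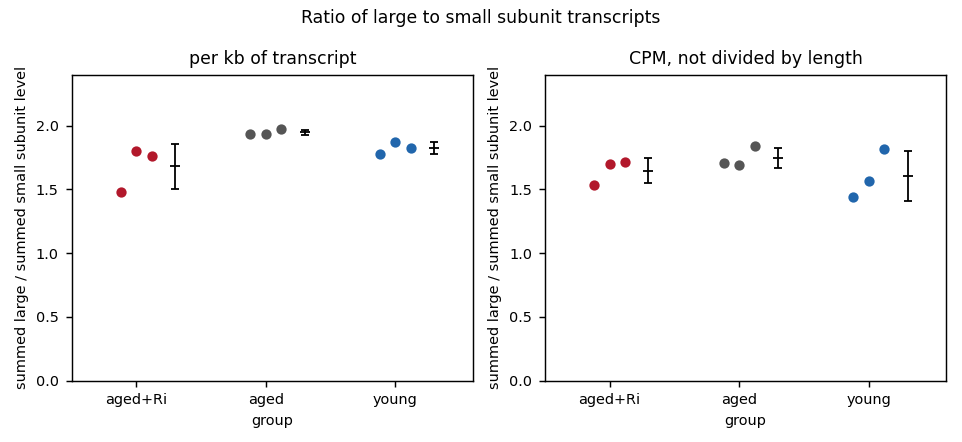
Ratio of summed large to summed small subunit transcript levels in each library, with mean ± SD beside the points, from CPM per kb of transcript (left) and from CPM not divided by length (right). On the left the aged points lie at 1.93 to 1.97, above all others, and on the right the 3 groups overlap.

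The rest of the mitochondrial expression machinery gave no call either. The 5 mitoribosomal protein genes with other symbols had median log2 changes of 0 for aged+Ri against aged, -0.09 for aged against young and 0.31 for aged+Ri against young cells, with 0 of 5 called in each. One of them, Aurkaip1, averaged 265 ± 43.9 CPM in aged+Ri, 274 ± 47.6 in aged and 159 ± 59.1 in young cells (SD, n = 3 each). None of the 12 genes of mitochondrial transcription and none of the 16 translation factors was called in any comparison, the factors having medians of -0.09, -0.20 and -0.07 in the same order. Tsfm, an elongation factor, averaged 30.5 ± 5.69 CPM in aged+Ri, 30.1 ± 29.7 in aged and 7.99 ± 3.78 in young cells. The 25 assembly factors had medians of 0.08, 0.40 and 0.74 in that order, against -0.06, -0.13 and -0.24 over all genes, and 0 of 25 were called. Of these Mpv17l2 averaged 49.3 ± 13.0 CPM in aged+Ri, 45.4 ± 10.5 in aged and 3.31 ± 5.11 in young cells. Nsun4, a methyltransferase of mitochondrial ribosomal RNA, averaged 57.6 ± 17.8 CPM in aged+Ri, 22.8 ± 8.36 in aged and 34.1 ± 10.6 in young cells. Their groups did not overlap in aged against young cells for Mpv17l2 and in aged+Ri against aged cells for Nsun4.

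The messenger RNAs that the mitochondrial ribosome translates had lower values in aged than in young cells, where most of its protein genes had higher ones. All 13 had a negative log2 change in each comparison, with medians of -0.70 for aged+Ri against aged, -0.64 for aged against young and -1.25 for aged+Ri against young cells. EdgeR called 0, 0 and 5 of the 13, all 5 of them lower in aged+Ri cells than in young cells, where 0.489% of all genes were called lower. They took 1.57, 2.56 and 1.88% of the counts in aged+Ri libraries, 2.71, 3.54 and 2.57% in aged libraries and 4.68, 4.14 and 4.48% in young libraries. Every young library was above every other, while aged+Ri and aged libraries nearly met. In TMM-scaled CPM the aged+Ri and aged libraries overlapped, with aged+Ri 2 (24653 CPM) above aged 3 (23294 CPM). mt-Nd1, a core subunit of complex I, fell to 653 ± 289 CPM in aged+Ri cells, against 2287 ± 492 CPM in young cells (SD, n = 3 each). Its log2 change was -1.81 ± 0.34, with an edgeR adjusted p of 0.0247. Mitochondrial ribosomal RNAs were not analysed here. Nuclear genes of the respiratory chain had medians of -0.36, 0.04 and -0.34 in the 3 comparisons, with 1 of 76 called, as higher in aged+Ri than in young cells. Cytosolic ribosomal protein genes had medians of -0.28, -0.23 and -0.48, with 0 of 78 called.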

How the data were processed

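RNA sequencing libraries of LT-HSCs (SMART-Seq v4 cDNA, Nextera XT) were deposited as 1 table of 21939 genes by 9 libraries. It holds estimated counts made by the authors: within 0.005, only 71.6 to 80.9% of a library's values are whole. The tools, per the submitters' processing notes, were featureCounts, with no version given, STAR 2.7.0, cutadapt 1.18, R 4.2.0 and SAMtools 1.14, for the build GRCm38. No source says whether strand was used. Before any fit the values were rounded to whole numbers.

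Genes were kept by filterByExpr with the groups, scaled by TMM and fitted in 1 quasi-likelihood model of 3 group means (edgeR 4.0.16, glmQLFit with robust estimation, R 4.3.3; 6 residual degrees of freedom). Two-sided F-tests were adjusted by Benjamini-Hochberg over the 15127 genes tested, and "called" means an adjusted p under 0.05. CPM are TMM-scaled. Levels per kb use the length of the reference transcript of the GRCm38 gene annotation, in which all 78 genes were matched. Scripts were tested on simulated data.

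Genes and lists were chosen with earlier results of these data known. Mitoribosomal genes named are up to 5 per comparison and direction with groups that do not overlap, by unadjusted p, those with the highest and lowest levels and spread, and Mrps18a, Mrps18b, Mrps18c, Mrps30, Mrpl12, Mrps12, Mrpl58 and Mrps36 for their roles. Of other lists up to 3 per comparison were eligible. Each pair of libraries differed by more than sampling noise. Alternatives were DESeq2 1.42.0 and its size factors, limma-voom 3.58.1 with sample weights, library totals, edgeR's newer quasi-likelihood method, no filter, a minimum of 10 counts throughout a group, a block for the replicate number, a term for the sequencing batch, only the groups compared, other subunit assignments and lengths, and each library left out. Young 1 as the only young library and the exon union length were added after the data were seen.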

Additional observations from a re-analysis of the deposited data

How the results depend on the processing

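No subunit median changed sign under the alternatives run, though the large subunit median in aged+Ri against young cells was 0 without aged+Ri 3. The sign of a named gene's change could rest on 1 library. Mrps25 had a log2 change of 0.43 in aged against young cells. Its aged mean of 64.7 CPM lay below young 1 (66.8 CPM) and young 2 (76.9 CPM) and above young 3 (0.143 CPM). The order of aged+Ri and young cells in the subunit ratio did turn, without length and with exon union lengths. The number of mitoribosomal genes called in aged+Ri against aged cells was 0 under every alternative run. In aged against young cells it was 3 with DESeq2 (744 of all genes), 5 with young 1 as the only young library (358) and between 0 and 3 with 1 library left out. In aged+Ri against young cells it was 7 with DESeq2 (1862 of all genes), 3 with limma-voom (626), 2 with the newer edgeR method (425), 2 with no filter (291), 1 with a minimum of 10 counts throughout a group (299), 1 with the sequencing batch as a term (190), 12 with young 1 alone (735) and between 0 and 11 with 1 library left out. The cause was not tested. Same-numbered libraries did not deviate together (correlations of -0.07 to 0.12, not every library correlating best with its own number), so numbers were not taken to pair samples. With the replicate block 1 gene, Mrpl4, was called in aged+Ri against young cells (1.28%, against 1.49% of all genes). In the other comparisons 0 were called, against 0.0132% of all genes in aged+Ri against aged and 0.0397% in aged against young cells.

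The median log2 change of small subunit genes in aged+Ri against young cells was 0.58 with limma-voom, 0.46 with the batch term and between 0.16 and 0.52 with 1 library left out. In aged against young cells it was 0.09 and that of large subunit genes 0.60 with young 1 alone, and with 1 library left out the small subunit median lay between 0.28 and 0.53. In aged+Ri against aged cells the small subunit median was -0.23 with Mrps18a and Mrps30 moved to the large subunit. The ratio of large to small subunit levels, in aged+Ri, aged and young cells, was 1.499, 1.62 and 1.26 with exon union lengths, 1.65, 1.74 and 1.61 without length, and 1.82, 2.08 and 1.90 with those 2 genes moved. Of the values of single genes, 375 kept direction and side of the threshold and 39 newly passed it. Other scalings moved the median of all genes by less than 0.1. Depth limits little here except for Mrpl53, with at most 24 counts in a library.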
